A study of Homo sapiens with 4 samples.

Results

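Small RNA reads from both arms of 2 hairpins, pri-mir-30d and pri-mir-576, are described here in HCT116 cells, an established human colon carcinoma line. They were found in the count table by 6 names of 1644, which hold 94 of its 12689 isoform rows: hsa-miR-30d-5p, hsa-miR-30d-3p, hsa-miR-576-5p, hsa-miR-576-3p and the 3p sequences miR-30d-seedM6-SNP-3p and miR-576-seedM6-SNP-3p. An isoform is a miRNA with one joint position of its first and last base. The study concerns DROSHA cleavage of pri-miRNAs whose upper stems hold mismatches or wobble pairs, and the SNP of each of these pri-miRNAs places a mismatch in the seed region of the 5p arm (seedM). Small RNA was sequenced in 4 libraries, 1 per group, from cells transfected with pCDNA3 plasmids. The empty vector group received pCDNA3 alone. The wild type group received pri-mir-30d, pri-mir-576, other wild-type pri-miRNAs and pri-mir-16-1. The mutant 1 group received the SNP forms of pri-mir-30d and pri-mir-576, variants of the other pri-miRNAs and pri-mir-16-1. The mutant 2 group received a variant of pri-mir-342, pri-mir-16-1 and empty vector, but neither pri-mir-30d nor pri-mir-576. The labels name mutant 1 and mutant 2 without their plasmids, so they were matched to the listed mixtures in listing order. Every group keeps the cells' own MIR30D and MIR576 genes, and the effect of a SNP cannot be told apart from that of the other variants in the same mixture.

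MiRNAs are cut from hairpins in primary transcripts. The Microprocessor, DROSHA with DGCR8, cuts the stem first and so sets the start of the 5p miRNA and the end of the 3p miRNA. DICER then cuts near the loop and sets the end of the 5p miRNA and the start of the 3p miRNA. One arm is loaded into an Argonaute protein and finds targets through its seed, while the other arm is mostly degraded. MiR-30d belongs to the miR-30 family, whose members share a seed and are abundant in epithelial cells.

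The miR-576 sequences are shown because the base changed by the SNP can be seen in them. MIR576 lies at chr4:109488698-109488795 of GRCh38 (plus strand). It sits inside intron 4 of SEC24B, a gene of COPII vesicle coats. The mature RefSeq sequences (GRCh38.p14) come first, with the seed, bases 2 to 8, in capitals. They lie at chr4:109488713-109488734 and chr4:109488752-109488773. They are followed by the 3p miRNA in the cloned wild-type and SNP pri-miRNAs, with the changed base in capitals. Last come the 23-nt forms of both arms, whose ends were the most frequent in the libraries. Their bases are those of the cloned pri-miRNA, and the last base in the reads was not examined. The 23-nt 5p form has its seed in capitals and the 23-nt 3p form the base changed by the SNP.
hsa-miR-576-5p: aUUCUAAUuucuccacgucuuu
hsa-miR-576-3p: aAGAUGUGgaaaaauuggaauc
hsa-miR-576-3p in the wild-type plasmid: aagatgtggaaaaatTggaatc
miR-576-seedM6-SNP-3p: aagatgtggaaaaatGggaatc
hsa-miR-576-5p, 23-nt form: aTTCTAATttctccacgtctttg
hsa-miR-576-3p, 23-nt form: aagatgtggaaaaatTggaatcc

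The substitution was T87G, with base 1 the first base of the 117-nt cloned pri-miRNA, and it fell on base 16 of the 22-nt 3p miRNA. In the structure predicted by RNAfold, the wild-type base paired with the A at base 6 of the 5p miRNA. The substituted base was unpaired, and the minimum free energy went from -48.3 to -44.5 kcal/mol. The corresponding change in pri-mir-30d (121 nt) was T90C, at base 15 of the 22-nt 3p miRNA, and it also unpaired the A at base 6 of the 5p miRNA in the predicted structure, with free energies of -36.9 and -32.6 kcal/mol. Since the changed base lies in the 3p arm, 3p reads from the SNP plasmids differ in sequence from those of the cells' own genes, whereas 5p reads do not. Whether the authors' alignment kept all such 3p reads apart was not tested. Both substitutions lie outside the seed of the 3p miRNA.

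The libraries held 14544516 reads with the empty vector, 17364117 for wild type, 19834361 for mutant 1 and 17136599 for mutant 2, and the members took between 0.961% and 4.10% of them. Levels are given in RPM, reads per 1000000 untransfected miRNA reads, that is reads of miRNAs that no deposited plasmid sequence encodes. All 5 listed miRNAs of epithelial and colorectal cells were read in every library, at a summed 21242 to 24152 RPM. Of 6 listed markers of other cells, 3 were at 0 in every library (miR-1-3p, miR-133a-3p and miR-124-3p), and the summed level of the list was 4.11 to 5.35 RPM. Without replicate libraries no test between groups was possible. Intervals are at 95% and cover counting error only. The spread between libraries is instead given by the untransfected arms with a mean of at least 50 reads, whose log2 ratios had an SD of 0.39 both for wild type against empty vector (471 arms) and for mutant 1 against wild type (470 arms). The median log2 ratio over all 491 arms was 0.098 and -0.17 in these comparisons, so a fall is read against -0.17. No SD was computed for other pairs of libraries, where 0.39 serves as a guide only.

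MiR-30d-5p, the abundant arm of pri-mir-30d, was at 13217 with the empty vector, 52460 for wild type, 12997 for mutant 1 and 12358 for mutant 2, all in RPM. Only the wild type library stood apart. Wild type was 3.97 times the empty vector (3.95 to 3.99), or 1.94 times per miR-16-5p read. Mutant 1, scaled by miR-16-5p reads, was 0.245 times wild type (0.244 to 0.247), and 0.0158 times with mutant 2 subtracted from both. Subtraction of the empty vector instead left -3083 reads in mutant 1, so it gave no ratio. Per untransfected miRNA read mutant 1 was 0.983 times the empty vector (0.977 to 0.990). That last difference is far smaller than the spread of untransfected arms between libraries. The 3p arm of the same hairpin was also highest in wild type, by a larger factor. The reference sequence of miR-30d-3p was at 216 RPM with the empty vector, 1744 for wild type, 149 for mutant 1 and 188 for mutant 2. With the SNP reads added, the wild type library held 8.06 times the miR-30d-3p of the empty vector (7.75 to 8.38), or 3.93 times per miR-16-5p read, and mutant 1 held 0.0889 times that of wild type (0.0851 to 0.0929). Mutant 1 was thus at 0.724 times the empty vector (0.685 to 0.765) and mutant 2 at 0.869 times (0.825 to 0.915). These are log2 differences of -0.47 and -0.20, against the SD of 0.39 among untransfected arms that was found for other pairs of libraries.

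Reads assigned to the SNP sequence of miR-30d-3p were counted apart from those of the reference sequence. They numbered 1 with the empty vector, 3 for wild type, 109 for mutant 1 and 0 for mutant 2. The 109 reads (95% Poisson interval 89.5 to 132) stood above all other libraries, where a count of 0 to 3 is at or under the floor of 3 reads. Scaled by miR-16-5p, they were 0.00441 times all miR-30d-3p reads of the wild type library (0.00365 to 0.00532), or 0.00503 times (0.00417 to 0.00608) the 18703 wild type reads above the empty vector level. Wild type 3p reads above the empty vector level were thus 199 times the SNP reads. SNP reads were found in the authors' alignment to the mutant sequences, and its part in this difference was not tested. The remaining 2090 miR-30d-3p reads of the mutant 1 library were assigned to the reference sequence. Their base at the SNP position was not examined. Exact matches to the SNP sequence in hg38 were absent for the 7 isoforms searched.

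MiR-576-5p was far lower than miR-30d-5p in cells without its plasmid. Its levels were 88.9 RPM with the empty vector, 3096 for wild type, 415 for mutant 1 and 107 for mutant 2. Here mutant 1 lay between wild type and both libraries without a pri-mir-576 plasmid. Wild type was 34.9 times the empty vector (32.9 to 36.9), or 16.99 times per miR-16-5p read, and mutant 1 was 0.133 times wild type (0.129 to 0.136). Mutant 1 still held 4.67 times the miR-576-5p of the empty vector (4.39 to 4.97) and 3.88 times that of mutant 2 (3.67 to 4.10). Of its 5818 reads, 4572 (4406 to 4737) were above the scaled empty vector level, against 36816 for wild type. For miR-30d-5p the same subtraction left -3083 reads (-4286 to -1880) when the empty vector was the reference and 8972 (7824 to 10120) when mutant 2 was, so a contribution of the SNP plasmid to this abundant miRNA was not detectable beyond the difference between these libraries.

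The 3p arm of pri-mir-576 was near its endogenous level in mutant 1. The reference sequence of miR-576-3p was at 21.9 RPM with the empty vector, 851 for wild type, 24.7 for mutant 1 and 20.5 for mutant 2. Wild type was 38.9 times the empty vector (34.6 to 43.6), or 18.9 times per miR-16-5p read. With the SNP reads added, mutant 1 was 0.0289 times wild type (0.0259 to 0.0321) and 1.13 times the empty vector (0.970 to 1.32), an interval that includes no difference. Against mutant 2 it was 1.21 times (1.04 to 1.41), a log2 difference of 0.28. That is smaller than the SD of 0.39 found for other pairs of libraries. With the empty vector or mutant 2 subtracted, mutant 1 was 0.00348 or 0.00515 times wild type. Thus the 5p arm of pri-mir-576 stayed above the endogenous level in mutant 1 while its 3p arm did not rise beyond the spread between libraries. Reads with the SNP sequence numbered 2 for mutant 1 and 0 in each other library. Scaled by miR-16-5p, these 2 reads were 0.000166 times the 10415 wild type reads (2.01e-05 to 0.000599, exact Poisson interval of the 2 reads).

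The SNP sequence of miR-576-3p is also found elsewhere in the genome. Its 22-nt form occurs once in hg38, at chr18:47298057-47298078 on the minus strand, and the authors aligned to the mutant sequences the reads that an earlier step had left unmapped. Whether the genomic match kept SNP reads out of this count was not tested. The 23-nt SNP form had no exact match. The 2 reads that were counted were forms of 20 and 19 nt, which each match hg38 at 3 places. The reference miR-576-3p is itself repeated, with 4 exact matches of its 22-nt and 23-nt forms, 2 of them on chromosome 4 and the others on chromosomes 5 and X. How many miR-576-3p reads, reference or SNP, were set aside as ambiguous was not tested, whereas miR-576-5p and both arms of miR-30d match at 1 place each.

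All 4 arms were over 2-fold higher in wild type than with the empty vector, where 4.89% of 491 arms with a mean of at least 50 reads were. The count for the members fell to 3 when libraries were scaled by miR-16-5p, where 2.65% of the 491 arms were over 2-fold higher. MiR-16-5p itself was at 16944 RPM with the empty vector and 34753 for wild type, which received its plasmid. All 4 arms were also over 2-fold lower in mutant 1 than in wild type, where 3.46% of 491 arms were. Among the 481 arms measured in both comparisons, miR-576-3p ranked 1, miR-30d-3p 2, miR-576-5p 3 and miR-30d-5p 6 by the size of the fall. Of the 470 untransfected arms, 8 changed by over 2-fold in either direction.

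The balance of the arms within a library needs no scaling. For pri-mir-30d there were 61.1 reads of the 5p arm per 3p read with the empty vector (58.9 to 63.3), 30.1 for wild type (29.7 to 30.5), 82.9 for mutant 1 (79.5 to 86.5) and 65.7 for mutant 2 (63.3 to 68.2). The wild type plasmid thus came with a larger share of 3p reads, 3.22% of both arms against 1.61% with the empty vector. In wild type reads above the empty vector level the ratio was 25.7 (25.3 to 26.1). For pri-mir-576 the ratio was 4.06 with the empty vector (3.57 to 4.61), 3.64 for wild type (3.56 to 3.72), 16.7 for mutant 1 (15 to 18.6) and 5.22 for mutant 2 (4.62 to 5.89). Only mutant 1 was far from the others, and above the empty vector level its ratio was 112, a value without an upper limit, since the 40.9 reads of miR-576-3p that remained have an interval that includes 0 (-9.88 to 91.6). With mutant 2 subtracted the ratio was 71.2 (39.5 to 357), over 60.7 reads of miR-576-3p (12.1 to 109). Both values also rest on an arm whose reference sequence has 4 exact matches in hg38 and whose SNP reads came from the alignment to the mutant sequences, whereas miR-576-5p matches once. Whether reads were lost from the 3p arm alone was not tested.

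From wild type to mutant 1 the ratio rose 2.76-fold for pri-mir-30d (2.64 to 2.88) and 4.59-fold for pri-mir-576 (4.11 to 5.13). Both were past 2-fold, where 8.06% of 124 hairpins with at least 50 reads of each arm in both libraries were. The ratio of pri-mir-30d also fell 2.03-fold (1.95 to 2.11) from the empty vector to wild type, and that of pri-mir-576 changed 1.12-fold (0.979 to 1.27), against a background of 8% of 125 hairpins past 2-fold. The mutant 1 ratio of pri-mir-30d was close to those of the libraries without a pri-mir-30d plasmid, at 1.36 times the empty vector (1.28 to 1.44), while that of pri-mir-576 was 4.12 times the empty vector (3.49 to 4.87).

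The ends of the reads were compared next, since DROSHA sets the 5p start and the 3p end of the hairpin's products. The table gives offsets from the annotated ends, and read lengths fall inside the 18 to 26 nt kept by the authors for 100% of 10981 isoforms only if a positive offset means a shorter miRNA at either end. An offset of -2 at the 3p end is therefore a miRNA longer by 2 nt. The authors allowed mismatches at the 3p end, so longer forms can include bases added after cleavage. The 5p miRNAs started at 1 place. MiR-30d-5p began at offset 0 in 99.2% to 99.3% of its reads in every library, and miR-576-5p in 98.9% to 99.8%. The share for mutant 1 minus wild type was 0.0772 percentage points (0.0334 to 0.119) for miR-30d-5p and 0.0892 (-0.0821 to 0.205) for miR-576-5p. For miR-30d-5p, whose mutant 1 reads were at the endogenous level, this share says nothing of the SNP plasmid. For reads of miR-576-5p above the empty vector level the shares at offset 0 were 99.7% for wild type and 99.9% for mutant 1.

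MiR-30d-3p had 2 starts. Its share at offset 0 was 67.9% with the empty vector (66.2 to 69.6), 84.0% for wild type (83.5 to 84.5), 67.0% for mutant 1 (65.0 to 69.0) and 68.1% for mutant 2 (66.4 to 69.8). Nearly all the rest started 1 nt later, which was 15.8% of all its reads for wild type and 31.1% to 32.1% elsewhere. The wild type library was thus alone in its start positions, 16.1 points above the empty vector (14.4 to 17.9), and mutant 1 minus wild type was -17.01 points (-19.07 to -15.02). For wild type reads above the empty vector level the share at offset 0 was 86.3%. The 109 SNP reads fell between these values, with 77.1% at offset 0 (68.3 to 84.0). That is 10.6 points above the 2090 reference reads of the same library (1.60 to 17.7). Against the reference reads of the wild type library the difference was -6.98 points (-15.7 to -0.0745), with an upper bound near 0.

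MiR-576-3p, in contrast, started at offset 0 in 88.7% to 90.97% of reads, and mutant 1 differed from wild type by 0.849 points (-2.73 to 3.57), which became -1.25 points with mutant 2 subtracted from both, a value over 60.7 reads in mutant 1. Of the 4 arms, 1 changed by over 5 points at its main start between wild type and mutant 1, as did 16.3% of 471 arms, and 1 between the empty vector and wild type, as did 16.7% of 473 arms. In both cases this arm was miR-30d-3p. The count of 1 of 4 lies near the background, while its differences are past the 90th percentile of absolute differences over all arms, 7.99 and 7.18 points.

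Ends of the 3p arms, the other base cut by DROSHA, varied less in pri-mir-30d. MiR-30d-3p ended at offset 0 in 78.7% of reads with the empty vector, 81.2% for wild type, 76.3% for mutant 1 and 77.1% for mutant 2, and in 74.3% of the SNP reads (65.4 to 81.6). The SNP reads were 6.84 points below the reference reads of wild type, with an interval (-15.8 to 0.455) that includes no difference. MiR-576-3p was mostly longer by 1 nt, in 68.9% of reads with the empty vector (63.4 to 74.0), 84.0% for wild type (83.3 to 84.7), 82.8% for mutant 1 (78.4 to 86.4) and 78.1% for mutant 2 (73.1 to 82.3). The empty vector library was the lowest, and mutant 2, which also lacked the plasmid, was 9.12 points above it (2.08 to 16.1). These shares rest on 293 reads with the empty vector and 310 for mutant 2. Wild type was 15.1 points above the empty vector (10.03 to 20.7), and mutant 1 minus wild type was -1.29 points (-5.67 to 2.38).

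Ends of the 5p arms, which DICER cuts, differed by a few points. MiR-30d-5p was mostly 2 nt longer than annotated, in 84.4% of reads with the empty vector, 89.5% for wild type, 85.4% for mutant 1 and 85.0% for mutant 2. MiR-576-5p was mostly 1 nt longer, in 80.1%, 85.1%, 79.1% and 79.4% of reads in the same order. Both were thus highest in wild type, by 5.10 points (4.92 to 5.29) and 4.99 points (2.79 to 7.38) over the empty vector. Mutant 1 minus wild type was -4.15 points (-4.33 to -3.98) for miR-30d-5p and -5.94 points (-7.06 to -4.85) for miR-576-5p. Among miR-30d-5p reads above the mutant 2 level the longer end made up 90.9% for wild type and 93.2% for mutant 1, but the latter share is of the 8972 reads that were not detectable beyond the difference between libraries, so it shows no direction. In miR-576-5p reads above the empty vector level the longer end made up 85.2% for wild type and 78.9% for mutant 1. At the main 3p end, 1 of 4 arms differed by over 5 points between mutant 1 and wild type, against 35.9% of 471 arms, and 2 of 4 between wild type and the empty vector, against 30.9% of 473 arms. These counts lie near the background. The 15.1 points of miR-576-3p between wild type and the empty vector are past the 90th percentile of absolute differences, 10.02 points, and the other members' differences at this end are under it in both comparisons.

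Joint isoforms of one arm did not all rise alike with the wild type plasmid. The 24-nt form of miR-30d-5p, with 148102 reads for the empty vector, 570436 for wild type, 154518 for mutant 1 and 157707 for mutant 2, rose 4.21-fold from the empty vector to wild type (4.19 to 4.23). The 23-nt form rose 3.58-fold and the 22-nt form 2.95-fold. The 20-nt form, which starts at the same base, had 7914, 9017, 5711 and 7240 reads in the same order and was at 1.25 times the empty vector in wild type, inside the spread of untransfected arms. The shorter the form, the smaller was its rise among these isoforms of miR-30d-5p. From wild type to mutant 1 the same forms reached 0.234, 0.290, 0.347 and 0.547 times wild type.

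Among the 4 most abundant forms of miR-30d-3p, the start went with the size of the rise and the end did not. The forms that start at offset 0 rose 10.5-fold (23 nt) and 9.95-fold (22 nt), while those that start 1 nt later rose 3.99-fold (22 nt) and 4.02-fold (21 nt). In mutant 1 the former were at 0.0695 and 0.0703 times wild type and the latter at 0.202 and 0.168 times. Of rarer forms at offset 0, the 21-nt form had 72 reads with the empty vector, 672 for wild type and 56 for mutant 1. The 20-nt form had 22, 108 and 20 reads in the same order, a smaller rise. Start and end were also linked within a library. Of the reads at offset 0, 11.5% were longer by 1 nt at the 3p end for wild type, against 29.0% of the reads that start 1 nt later. The corresponding shares were 10.9% and 29.6% with the empty vector, 11.3% and 32.3% for mutant 1, and 11.3% and 31.1% for mutant 2. The later start was thus joined to the later end more often in all 4 libraries. Among the SNP reads these shares were 11.9% of 84 reads (6.60 to 20.5) and 45.8% of 24 reads (27.9 to 64.9).

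For miR-576-5p the 23-nt form shown above had 944 reads with the empty vector, 32126 for wild type, 4589 for mutant 1 and 1268 for mutant 2. It rose 37.2-fold from the empty vector to wild type, and the annotated 22-nt form 26.1-fold. Mutant 1 was at 0.123 times wild type for the 23-nt form (0.120 to 0.127) and at 0.186 times for the annotated form (0.175 to 0.198). Another 22-nt form, which starts 1 nt later and had 108 reads for wild type and 13 for mutant 1, was at 0.104 times (0.0585 to 0.185). For miR-576-3p the 23-nt form had 179 reads with the empty vector, 7818 for wild type, 257 for mutant 1 and 217 for mutant 2, a rise of 47.7-fold. The annotated 22-nt form rose 23.9-fold, from 60 reads, and the 22-nt form that starts 1 nt later 49.02-fold, from 20 reads. In mutant 1 these 3 forms were at 0.0284 (0.0251 to 0.0321), 0.0263 (0.0192 to 0.0361) and 0.0269 (0.0185 to 0.0393) times wild type, with intervals that overlap.

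**Figure D1:**
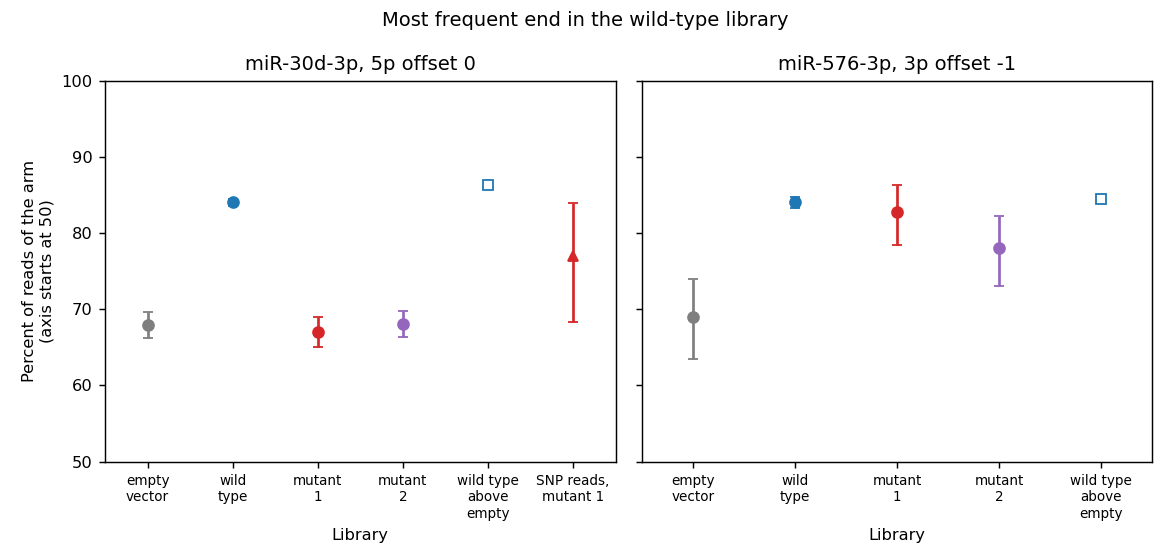
Percent of miR-30d-3p reads that start at offset 0 (left) and of miR-576-3p reads that end 1 nt beyond the annotated end (right), with 95% Wilson intervals, on an axis that starts at 50. The square is wild type above the empty vector level, drawn without an interval, and the triangle the 109 SNP reads. Wild type is at 84.0% in both panels, while mutant 1 is at 67.0% in the left panel and 82.8% in the right one.

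Other arms of the miR-30 family are close in sequence to miR-30d-5p. The MIR30D gene spans bases 134804876 to 134804945 of chromosome 8 (GRCh38, minus strand), within the span of the gene ENSG00000289405 but outside its canonical transcript. MiR-30d-5p differs from miR-30a-5p at 1 position, from miR-30e-5p at 2 and from miR-30c-5p at 6, with the same bases 2 to 8. MiR-30e-5p, which had no plasmid, was at 14006 RPM with the empty vector, 15335 for wild type, 16868 for mutant 1 and 15419 for mutant 2. MiR-30b-5p, also without a plasmid, was at 1778, 1959, 1892 and 1865. Neither of these arms was high in wild type alone, as miR-30d-5p was. MiR-30c-5p had between 8 and 11 reads, against 394 to 527 for miR-30c-1-3p. How many miR-30c-5p reads were set aside as ambiguous was not tested. The pri-miRNA of miR-30a-5p had a wild type plasmid in 1 mixture and, in mutant 1, a seedW plasmid (wobble pairs in the seed region). MiR-30a-5p was at 253, 93472, 37053 and 258 RPM. In mutant 1 it was mostly the seedW sequence, with 516138 reads against 3606 of the reference sequence, and the seedW form differs from miR-30d-5p at 3 positions. The reference sequence of miR-30a-5p alone, at 251, 93470, 257 and 256 RPM, was high only in wild type, as was miR-30d-5p. Whether reads of these 2 miRNAs were shared was not tested. MiR-30a-3p was at 5.61, 12.6, 2587 and 4.82, and rose where miR-30d-3p fell. Both arms of miR-142, also from a pri-miRNA with a seedW plasmid in the mutant 1 mixture, were at 24.7, 2766, 978 and 21.9 (5p) and 8.52, 1571, 302 and 7.20 (3p), between the wild type and endogenous levels in mutant 1 as miR-576-5p was.

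Among 497 arms, those whose levels over the 4 libraries were most like miR-30d-5p were miR-5008-3p, miR-30d-3p and miR-200b-3p, at distances of 1.02, 1.09 and 1.14 in centred log2 RPM. MiR-5008-3p, which had no plasmid, held only 46 to 122 reads. Those most like miR-576-5p were miR-182-3p (1.41), miR-576-3p (1.75) and miR-30d-3p (2.23). With 4 libraries these distances describe which arms were high in wild type and not which arms are related.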

How the data were processed

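The authors trimmed adapters with cutadapt, kept reads of 18 to 26 nt, aligned them to hg38 with Bowtie2, assigned unambiguous reads with mismatches only at the 3p end to miRBase 22 loci, and aligned unmapped reads to the mutant pri-miRNAs (tool names also per the labels). The deposited values are raw counts per isoform, without normalization. A blank cell was taken as 0. Reads were summed over isoforms of an arm, SNP sequences included.

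Mutant 1 was compared with wild type per miR-16-5p read, and wild type with the empty vector per untransfected miRNA read. With 1 library per group no test was made. Wilson, Newcombe, Poisson and log-scale normal intervals (95%) cover counting error only, and reads carry no molecular identifiers, so they are not independent molecules. The background is the share of all arms past 2-fold (mean of at least 50 reads, with 0.5 reads added) or past 5 percentage points (at least 50 reads in each library). The floor was 3 reads. For reads above the endogenous level, the empty vector or mutant 2 library was subtracted after scaling by untransfected miRNA reads, and ratios of the remaining reads have Fieller intervals.

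The named miRNAs are both arms of pri-mir-30d and pri-mir-576 with their SNP sequences, the 3 most abundant joint isoforms of each arm in any library, miR-16-5p, the miR-30 and miR-142 arms, and the 3 arms most like each 5p arm. The members and lists were chosen with earlier results of these data known. Mature sequences are from RefSeq (GRCh38.p14), loci from GENCODE release 44. Python 3.11.15, pandas 2.3.3, scipy 1.17.1, RNAfold 2.7.2, R 4.3.3, edgeR 4.0.16 (TMM factors only) and DESeq2 1.42.0 (size factors only) were used, and the calculations were tested on simulated data.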

Additional observations from a re-analysis of the deposited data

How the results depend on the processing

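No ratio turned its direction under the alternatives run, but 2 differences in end shares did with mutant 2 subtracted, an alternative chosen after seeing the data for these shares. Mutant 1 minus wild type became 2.29 points at the main 3p end of miR-30d-5p and -1.25 points at the main start of miR-576-3p, and it was 0.562 points at the main start of miR-30d-5p. The mutant 1 shares behind them are of 8972 miR-30d-5p reads, not detectable beyond the difference between libraries, and of 60.7 miR-576-3p reads. Of 31 alternatives to the mutant 1 to wild type ratios, 11 stayed within the counting interval and 20 moved beyond it. For miR-30d-5p, all miRNA reads gave 0.2485, untransfected miRNA reads 0.2478, TMM 0.2679, DESeq2 size factors 0.2808, TMM without a filter 0.2869 and subtraction of mutant 2 0.0158. For miR-30d-3p, TMM gave 0.0972, DESeq2 size factors 0.102, TMM without a filter 0.104 and SNP reads alone 0.00441. For miR-576-5p, TMM gave 0.145, DESeq2 size factors 0.152, TMM without a filter 0.155, subtraction of the empty vector 0.107 and of mutant 2 0.102. For miR-576-3p, DESeq2 size factors gave 0.0331, TMM without a filter 0.0338, subtraction of the empty vector 0.00348 (-0.000841 to 0.00780) and of mutant 2 0.00515, and SNP reads alone 0.000166. SNP reads alone were likewise chosen after seeing the data.

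The wild type to empty vector ratios depended on the scale. MiR-16-5p, whose plasmid the empty vector group lacked, gave 1.94 for miR-30d-5p, 3.93 for miR-30d-3p, 16.99 for miR-576-5p and 18.9 for miR-576-3p. All miRNA reads gave 3.04, 6.17, 26.7 and 29.8. TMM gave 3.70, 7.51 and 32.5 and DESeq2 size factors 3.65, 7.41 and 32.1 for the first 3. The 5p to 3p ratio of pri-mir-30d in wild type was 25.7 with the empty vector and 25.8 with mutant 2 subtracted, and that of pri-mir-576 in mutant 1 was 112 and 71.2. The share of the main start of miR-576-5p differed by 0.217 points with the empty vector subtracted. Arms over 2-fold, in either direction, numbered 19 of 491 for mutant 1 against wild type and 25 of 491 for wild type against empty vector. A minimum of 10 reads gave 80 of 792 and 70 of 794, and a minimum of 200 reads gave 15 of 321 for the latter.

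Subtraction gave no value where mutant 1 fell under the floor: miR-30d-5p with the empty vector and miR-30d-3p with either library, with the 5p to 3p ratios of mutant 1 that need them. For the end share differences it gave no value for either arm of miR-30d with the empty vector or for miR-30d-3p with mutant 2. Shares passed 100% in mutant 1, and were left out, at both ends of miR-576-3p with the empty vector, at its 3p end with mutant 2 and at the start of miR-576-5p with mutant 2. No paired analysis was possible because each group has 1 library. Counts were small for the SNP reads, 109 and 2, and for the endogenous miR-576-3p, 293 to 310 reads in libraries without its plasmid. Whether depth or the alignment limited the SNP reads was not tested.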
